A study of Saccharomyces cerevisiae with 9 samples.

Results

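Pcf11 is a subunit of cleavage factor IA, one of the complexes that cut the 3′ end of nascent messenger RNA before poly(A) is added, and it also takes part in ending transcription by RNA polymerase II. It binds the carboxy-terminal repeats of the polymerase, and at small nucleolar RNA (snoRNA) genes it works alongside the Nrd1, Nab3 and Sen1 proteins, which end transcription of short noncoding RNAs. Pcf11-13 is a mutant allele of the PCF11 gene of the budding yeast Saccharomyces cerevisiae. The comparison described here sets the 3 libraries labelled Pcf11-13 against the 3 labelled wild type, 6 of the 9 libraries of the series, over all genes of the deposited table.

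Both strains were w303 of mating type alpha and carried his3-11,15 and leu2-3,112 along with ade2-1, ura3-1 and trp1-delta. TRP1 replaced PCF11 on the chromosome of each strain (also in the Pcf11-DNL strain, the other allele of the series), and the PCF11 copy named in the labels was on the plasmid pRS325-LEU2, described in the labels as low copy. The labels of the Pcf11-DNL libraries, which share the fit, give leu2-3,12 in place of leu2-3,112. In the Pcf11-13 strain the plasmid carried pcf11-13, with no tag named, and in the wild type strain it carried PCF11 with V5 and MYC tags. Cultures were grown at 30 °C, diluted to an OD600 of 0.2 and harvested at 1.0 to 1.2. Although caffeine appears in the growth text, the treatment given for these 6 libraries is glucose. Poly(A) RNA was sequenced as paired reads of 150 bases. The labels call the 3 samples of a group biological replicates. The tags and the allele differ together between the groups, as does the level of the PCF11 transcript given next, so their parts in any difference cannot be told apart.

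Library totals lay between 11372819 and 14021049 expected counts in Pcf11-13, and between 12361071 and 15906466 in wild type. A first principal component with 75.4% of the variance separated the groups, and a second with 10.1% set wild type replicate 1 apart from the other wild type libraries. The PCF11 transcript (YDR228C, whose chromosomal copy was deleted) had 677, 613 and 653 CPM in Pcf11-13, against 81.4, 87.5 and 85.1 CPM in wild type. This was a 7.64-fold rise (log2 fold change 2.93, SE 0.052, adjusted p = 1.56e-16), and the groups did not overlap. Levels are given as CPM, a gene's counts relative to the TMM-scaled library total, and every adjusted p for a gene is from edgeR's quasi-likelihood test with Benjamini-Hochberg adjustment over all genes tested. The alpha mating type of the labels was checked with its markers. The alpha-factor gene MF(ALPHA)1 had 890.0, 895 and 846 CPM in Pcf11-13, against 1119, 1106 and 1047 CPM in wild type, while the a-factor gene MFA2 had 0 counts in all 6 libraries and MFA1 a value above 0 in 1 of them. The other a-cell markers were low but present, with STE6, the exporter of a-factor, at 36.0 CPM in Pcf11-13 and 22.6 CPM in wild type.

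Of 5928 genes in the table, 5646 passed the filter on low counts. In Pcf11-13, 1988 genes were higher (35.2% of those tested) and 1744 were lower (30.9%) at an adjusted p under 0.05, together 66.1% of those tested. The larger changes ran mostly upward: 292 genes were higher by at least 2-fold (5.17%) and 35 were lower by at least 2-fold (0.620%). In 324 of these 327 genes (5.79% of those tested) every Pcf11-13 library lay on the same side of every wild type library, as in 69.7% of all genes tested. The genes that rose at least 2-fold were weakly expressed, with a median wild type level of 8.01 CPM, and those that fell at least 2-fold were better expressed, with a median wild type level of 134 CPM, against 62.3 CPM over all genes tested. In the lowest of 5 equal groups by mean level, 16.1% of genes rose at least 2-fold, and in the highest 1.33% did. The median log2 fold change of all genes was 0.03. Scaling by library totals in place of TMM raised it by 0.21, and the split of calls became 3372 higher and 861 lower, so the direction of changes below about that size depends on the scaling.

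**Figure D1:**
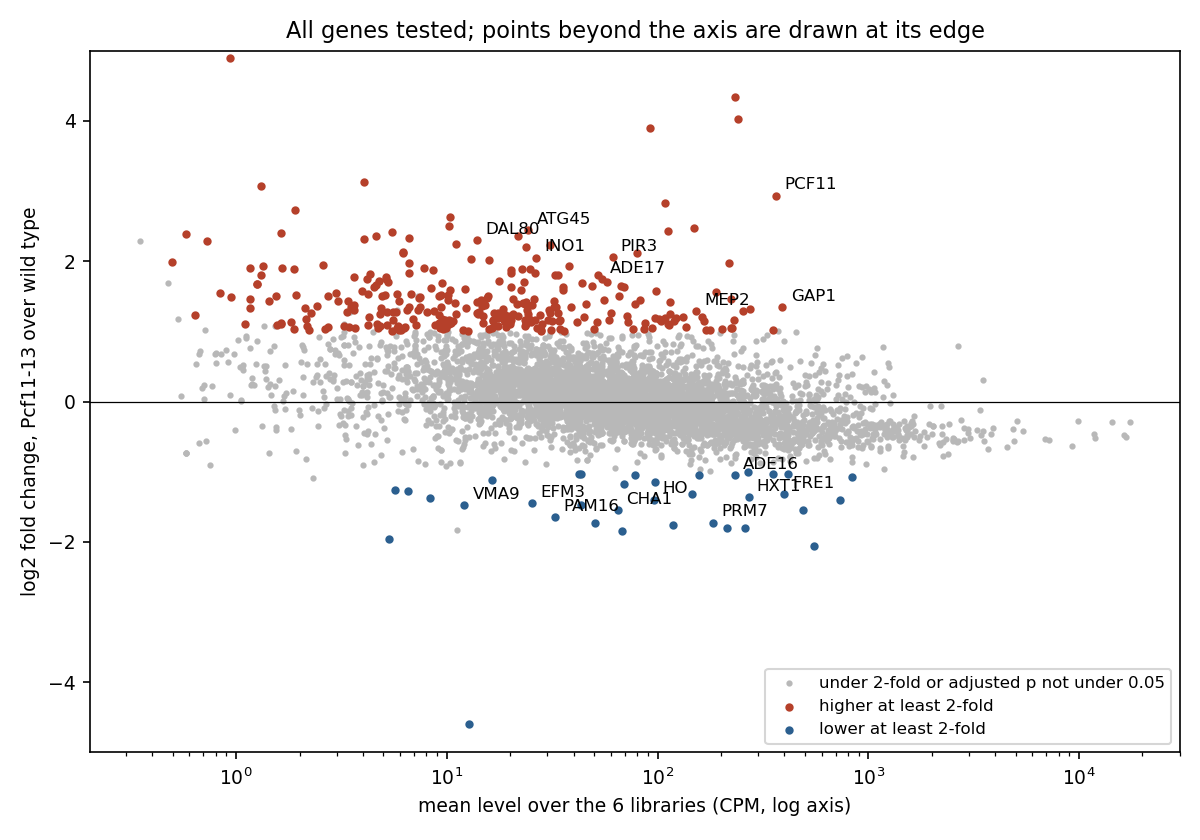
Log2 fold change of each tested gene, Pcf11-13 over wild type, against its mean level over the 6 libraries in CPM on a log axis. Genes called at least 2-fold higher (292, red) lie mostly at low levels, and genes called at least 2-fold lower (35, blue) lie across the levels.

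Among the genes with the highest fold changes were ATG45, SRX1, STR3, DAL80, INO1 and PIR3, which belong to different pathways. ATG45 encodes the receptor that brings glycogen to autophagy (YIL024C, chromosome IX, 308602 to 309171, minus strand). It had 40.8, 38.5 and 44.1 CPM in Pcf11-13, against 6.65, 8.25 and 7.60 CPM in wild type (log2 fold change 2.44, SE 0.10, adjusted p = 5.75e-12). SRX1, which encodes sulfiredoxin, an enzyme that repairs oxidised peroxiredoxin, had 8.17, 9.55 and 10.2 CPM in Pcf11-13, against 1.60, 2.22 and 1.38 CPM in wild type (log2 fold change 2.42, SE 0.22, adjusted p = 9.83e-08). All 3 Pcf11-13 libraries were above all 3 wild type libraries for both genes. STR3 encodes cystathionine beta-lyase, which forms homocysteine in methionine synthesis, and had 37.5, 37.7 and 34.6 CPM in Pcf11-13, against 3.90, 8.61 and 8.26 CPM in wild type (log2 fold change 2.37, SE 0.18, adjusted p = 1.27e-08). Wild type replicate 1 held the lowest STR3 value, and the change stayed past the threshold without it. INO1, the inositol-3-phosphate synthase that begins inositol synthesis, had 40.5, 43.5 and 43.3 CPM in Pcf11-13, against 12.5, 9.04 and 9.50 CPM in wild type (log2 fold change 2.05, SE 0.10, adjusted p = 1.20e-10). PIR3, a covalently bound cell wall protein, had 93.2, 101 and 102 CPM in Pcf11-13, against 22.1, 26.4 and 22.3 CPM in wild type (log2 fold change 2.06, SE 0.085, adjusted p = 1.09e-11). For INO1 and PIR3 too, the groups did not overlap.

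Several of the other leading risers encode metabolic enzymes. IDP2, the cytosolic NADP-dependent isocitrate dehydrogenase, had 35.8, 34.6 and 36.9 CPM in Pcf11-13, against 9.67, 10.6 and 8.65 CPM in wild type (log2 fold change 1.89, SE 0.089, adjusted p = 4.84e-11). DAK2, dihydroxyacetone kinase, averaged 25.4 ± 0.527 CPM in Pcf11-13 and 6.30 ± 0.413 CPM in wild type (SD, n = 3 each), a 4.04-fold rise with adjusted p = 2.69e-10. MAL12, a maltase gene, had 31.8, 33.7 and 29.2 CPM in Pcf11-13, against 8.60, 9.33 and 7.995 CPM in wild type (log2 fold change 1.87, SE 0.10, adjusted p = 1.14e-10). The related genes MAL32 and MAL31, a maltase and a maltose permease, were 2.73-fold and 2.28-fold higher (adjusted p = 8.67e-08 and 1.94e-08), and the isomaltase gene IMA5 was 2.02-fold higher (adjusted p = 5.68e-06). These 3 were chosen after their values were seen, and MAL12 and MAL32 are near-identical copies between which read assignment is uncertain. HES1, an oxysterol-binding protein gene, averaged 12.3 ± 1.16 CPM in Pcf11-13 and 3.24 ± 0.622 CPM in wild type, and HPA2, a histone acetyltransferase gene, averaged 10.1 ± 0.720 CPM in Pcf11-13 and 2.32 ± 0.0845 CPM in wild type (SD, n = 3 each). Their adjusted p values were 3.08e-08 and 2.26e-08. SUE1, needed for breakdown of unstable cytochrome c, rose 5.04-fold (adjusted p = 1.21e-07), and UIP4, a nuclear envelope protein gene, rose 3.66-fold (adjusted p = 9.66e-09).

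Genes with little or no assigned function were also among the leading risers. YDL199C, annotated as a putative transporter of the sugar porter family, had 63.1, 60.6 and 57.3 CPM in Pcf11-13, against 16.2, 15.7 and 15.3 CPM in wild type (log2 fold change 1.94, SE 0.069, adjusted p = 2.30e-12). YBR284W, similar to AMP deaminases but lacking key catalytic residues, had 40.4, 39.4 and 37.8 CPM in Pcf11-13, against 9.31, 7.46 and 8.78 CPM in wild type (log2 fold change 2.21, SE 0.092, adjusted p = 1.26e-11). YPR078C, a protein of unknown function, averaged 38.9 ± 3.08 CPM in Pcf11-13 and 10.5 ± 0.359 CPM in wild type (SD, n = 3 each), a 3.70-fold rise with adjusted p = 8.71e-11. ECM8, a nonessential gene of unknown function, rose 4.76-fold (adjusted p = 1.43e-09). Of 321 tested genes whose product is annotated as uncharacterized or hypothetical, 30 rose at least 2-fold (9.35%, against 5.17% of all genes) and 2 fell at least 2-fold.

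**Figure D2:**
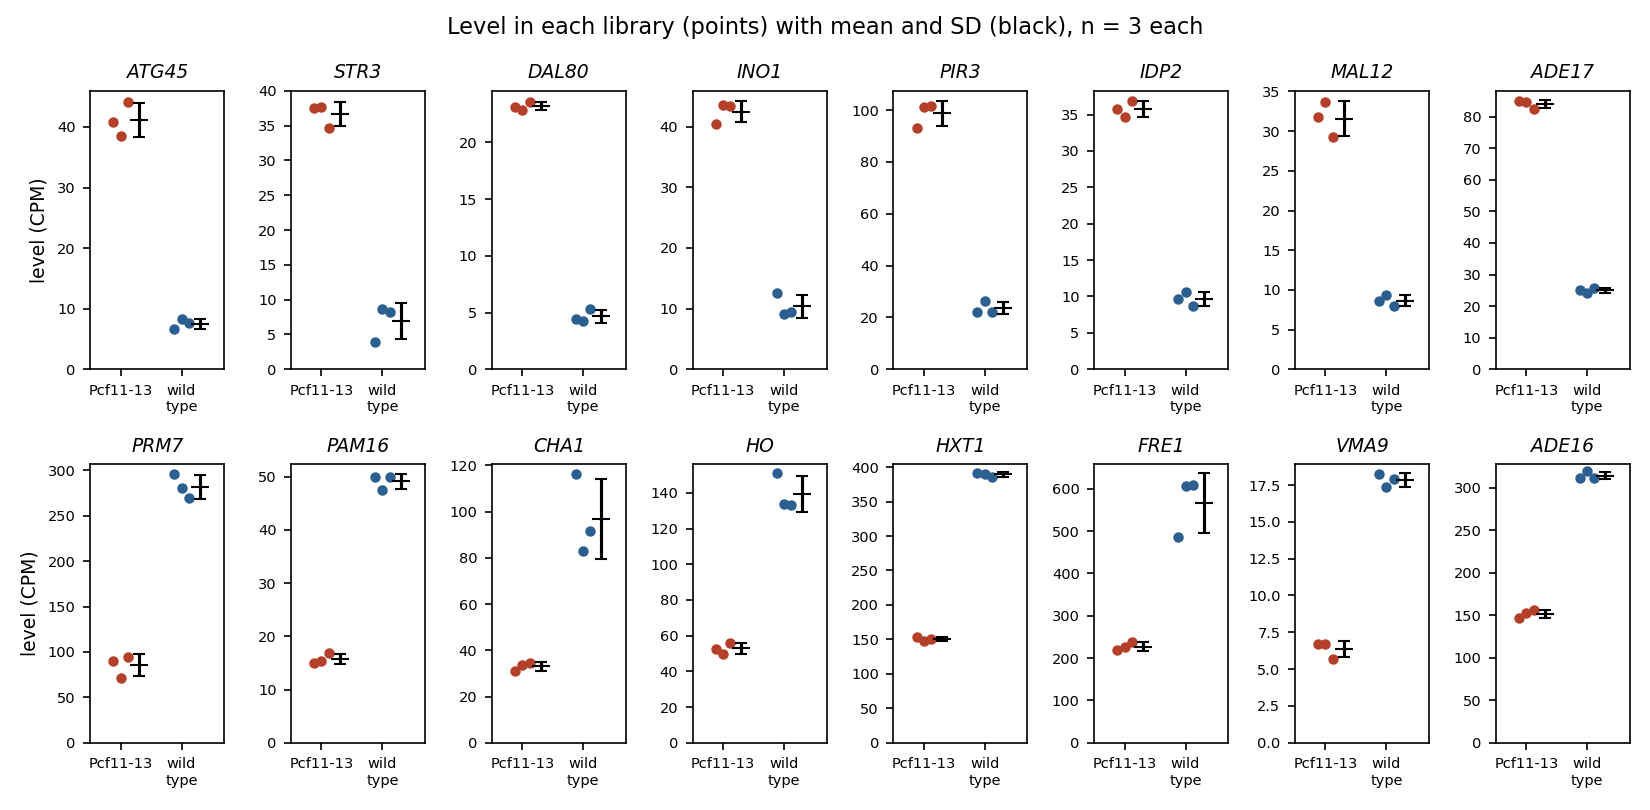
Level of 16 genes in CPM in each of the 3 Pcf11-13 libraries (red, left) and the 3 wild type libraries (blue, right), each axis starting at 0, with the mean and SD in black. The 8 genes of the upper row are higher and the 8 of the lower row lower in every Pcf11-13 library than in every wild type library.

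The genes that fell include surface proteins, transporters and subunits of essential complexes. PRM7, a pheromone-regulated membrane protein gene, had 90.5, 71.4 and 94.4 CPM in Pcf11-13, against 296, 280.5 and 269.6 CPM in wild type (log2 fold change -1.73, SE 0.077, adjusted p = 2.52e-11). The annotation states that in w303 PRM7 forms 1 continuous reading frame with its neighbour BSC1, which fell by a similar amount (log2 fold change -1.74), so these are 1 gene counted in 2 parts. PAM16, an essential subunit of the motor that pulls proteins into mitochondria, had 15.1, 15.4 and 16.8 CPM in Pcf11-13, against 49.9, 47.5 and 50.004 CPM in wild type (log2 fold change -1.64, SE 0.073, adjusted p = 2.35e-11). Of 32 tested genes of mitochondrial protein import, 12 were lower and 2 higher, with a median log2 fold change of -0.10. That is 37.5% lower, near the 30.9% of all genes, and with library totals as the scale the direction turned, with 3 lower and 12 higher. VMA9, the smallest subunit of the vacuolar proton pump, had 6.69, 6.69 and 5.72 CPM in Pcf11-13, against 18.3, 17.4 and 17.9 CPM in wild type (log2 fold change -1.48, SE 0.10, adjusted p = 5.22e-09). EFM3, the methyltransferase of elongation factor 2, had 13.5, 12.9 and 14.6 CPM in Pcf11-13, against 34.5, 38.9 and 37.9 CPM in wild type (log2 fold change -1.45, SE 0.078, adjusted p = 2.62e-10). CHA1, the deaminase that breaks down serine and threonine, had 30.9, 33.7 and 34.6 CPM in Pcf11-13, against 116, 82.9 and 91.6 CPM in wild type (log2 fold change -1.55, SE 0.11, adjusted p = 5.25e-09), and its highest value was in wild type replicate 1.

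HO, the endonuclease gene of mating type switching, had 52.6, 49.9 and 56.1 CPM in Pcf11-13, against 151, 134 and 133 CPM in wild type (log2 fold change -1.40, SE 0.058, adjusted p = 1.09e-11). HXT1, a low-affinity glucose transporter, had 154, 148 and 151 CPM in Pcf11-13, against 392, 389.6 and 386 CPM in wild type (log2 fold change -1.37, SE 0.042, adjusted p = 3.30e-13). FRE1, a cell surface ferric and cupric reductase, had 218, 226 and 237 CPM in Pcf11-13, against 486, 607 and 609 CPM in wild type (log2 fold change -1.32, SE 0.084, adjusted p = 1.82e-09), with wild type replicate 1 the lowest of its group. PTC2, a type 2C protein phosphatase, fell 2.48-fold (adjusted p = 4.62e-12). CDC26, a small subunit of the anaphase-promoting complex, averaged 3.37 ± 0.160 CPM in Pcf11-13 and 7.98 ± 1.6996 CPM in wild type (SD, n = 3 each), a 2.39-fold fall with adjusted p = 9.14e-06. GEP4, a mitochondrial phosphatase of cardiolipin synthesis, fell 2.18-fold (adjusted p = 3.01e-08), and VTC3, a subunit of the polyphosphate synthase of the vacuole, fell 2.10-fold (adjusted p = 1.43e-09). AQY2, a water channel gene, and YLL053C, which continues it in another strain background, fell 2.601-fold and 2.43-fold (adjusted p = 1.09e-06 and 1.15e-04). HSP30, a membrane heat shock gene, had 41.9, 44.4 and 41.8 CPM in Pcf11-13, against 94.8, 97.9 and 95.7 CPM in wild type (log2 fold change -1.17, SE 0.054, adjusted p = 3.47e-11).

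Genes under nitrogen catabolite repression, the control that keeps genes for poor nitrogen sources low while good ones are present, were higher almost throughout. Of 29 tested members, 28 were higher (96.6%, against 35.2% of all genes), none was lower and 9 rose at least 2-fold (31.0%, against 5.17%). The median log2 fold change was 0.66, against 0.03 over all genes. DAL80, a GATA repressor of this system that is itself under it, had 23.2, 22.9 and 23.6 CPM in Pcf11-13, against 4.44, 4.23 and 5.31 CPM in wild type (log2 fold change 2.31, SE 0.11, adjusted p = 7.63e-11). GAP1, the general amino acid permease, had 578, 572 and 535 CPM in Pcf11-13, against 226, 219.7 and 218 CPM in wild type (log2 fold change 1.34, SE 0.048, adjusted p = 2.52e-12). MEP2, the high-affinity ammonium permease and sensor, had 215, 217 and 218 CPM in Pcf11-13, against 95.3, 80.2 and 91.6 CPM in wild type (log2 fold change 1.28, SE 0.055, adjusted p = 1.53e-11). In each of the 3 genes the Pcf11-13 libraries lay close together and above every wild type library. GDH2, the glutamate dehydrogenase that releases ammonium, rose 2.30-fold (adjusted p = 4.62e-12), CAR2, ornithine aminotransferase, rose by a log2 fold change of 1.39 (adjusted p = 7.95e-09), and PUT4, the proline permease, rose 3.57-fold (adjusted p = 3.38e-11). DCG1 was the only member that did not pass (log2 fold change -0.11).

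The GATA factors of nitrogen control bind GATAAG. In the window from 250 bases before to 50 after the start codon's first base, this motif stood on either strand in 12 of the 29 members (41.4%) and in 14.7% of the windows of all tested genes. It stood in 16.8% of the windows of genes that rose at least 2-fold. The promoters of the 3 members with the highest fold changes among those with a match in the stretch given are shown because they carry this motif upstream. PUT4 and CAR2, which rose more than GAP1, had none in that stretch. Each is given from 250 to 51 bases before the start codon, 5′ to 3′ on the gene's strand (RefSeq R64), with GATAAG or its reverse complement CTTATC in capitals.
DAL80 (chrXI:506648-506847, plus strand): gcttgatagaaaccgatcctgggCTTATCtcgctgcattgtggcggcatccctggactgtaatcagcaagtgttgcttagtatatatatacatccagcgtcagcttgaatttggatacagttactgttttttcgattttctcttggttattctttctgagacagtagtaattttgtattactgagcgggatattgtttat
GAP1 (chrXI:514813-515012, plus strand): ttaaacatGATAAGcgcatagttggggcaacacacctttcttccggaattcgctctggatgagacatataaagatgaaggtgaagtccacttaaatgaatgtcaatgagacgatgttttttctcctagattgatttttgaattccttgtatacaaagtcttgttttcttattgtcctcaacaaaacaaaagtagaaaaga
MEP2 (chrXIV:357203-357402, plus strand): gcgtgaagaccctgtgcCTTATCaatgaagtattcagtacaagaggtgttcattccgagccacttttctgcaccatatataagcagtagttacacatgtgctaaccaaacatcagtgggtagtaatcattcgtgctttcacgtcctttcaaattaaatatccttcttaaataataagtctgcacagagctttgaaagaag
The matches begin 227, 242 and 233 bases before the start codons of DAL80, GAP1 and MEP2. A match describes the letters only.

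The list of amino acid permeases had members in both directions. It overlaps with the nitrogen catabolite repression list, in which none was lower. Of 20 tested, 14 were higher (70%) and 5 lower (25%), against 35.2% and 30.9% of all genes. The median log2 fold change was 0.55, and 15 were higher and 2 lower with library totals as the scale. AGP2, a plasma membrane regulator of the permease family, rose by a log2 fold change of 1.22, DIP5, which takes up glutamate and aspartate, by 1.10, and AGP3 by 1.25. SAM3, the S-adenosylmethionine permease, HIP1, the histidine permease, and TAT1, a tyrosine and tryptophan permease, were lower, at -0.60, -0.53 and -0.29. SEO1, a dipeptide transporter gene chosen after its values were seen, had 31.8, 31.0 and 32.3 CPM in Pcf11-13, against 6.30, 10.8 and 9.31 CPM in wild type (log2 fold change 1.83, SE 0.14, adjusted p = 1.07e-08).

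Thiamine genes were higher, while the other vitamin genes moved in both directions. Of 16 tested genes of thiamine synthesis and uptake, 14 were higher (87.5%, against 35.2% of all genes) and none lower. Their median log2 fold change was 0.74. THI2, an activator of the thiamine genes, had 13.7, 13.2 and 13.5 CPM in Pcf11-13, against 5.06, 6.10 and 4.65 CPM in wild type (log2 fold change 1.35, SE 0.13, adjusted p = 2.37e-07). THI4, which makes the thiazole ring, had 6.90, 7.60 and 9.75 CPM in Pcf11-13, against 2.22, 1.94 and 3.15 CPM in wild type (log2 fold change 1.71, SE 0.21, adjusted p = 2.39e-06). THI21, a phosphomethylpyrimidine kinase gene, rose by a log2 fold change of 1.11, and the transporter gene THI7 by 0.26. THI5, THI11, THI12 and THI13 are near-identical, so that reads may be shared among them. BIO3 and BIO4, adjacent genes of biotin synthesis, rose 2.23-fold and 2.39-fold (adjusted p = 3.75e-09 and 8.47e-10). SNZ1, a pyridoxine synthesis gene, had 95.7, 104 and 113 CPM in Pcf11-13, against 33.1, 37.9 and 29.9 CPM in wild type (log2 fold change 1.63, SE 0.078, adjusted p = 5.88e-11), and its neighbour SNO1 rose 2.40-fold (adjusted p = 1.00e-08). In the list that joins biotin, pyridoxine and NAD, 12 of 24 tested were higher (50%) and 8 lower (33.3%), against 35.2% and 30.9% of all genes. With library totals as the scale 15 were higher and 3 lower. The lower members included the NAD genes NPT1 (-0.40), NMA1 (-0.39), BNA7 (-0.36) and QNS1 (-0.27) and the nicotinic acid permease TNA1 (-0.46), all as log2 fold changes, while BNA2, the first enzyme from tryptophan, rose (0.99).

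Autophagy, the delivery of cytoplasm to the vacuole, had 29 of 36 tested members higher (80.6%, against 35.2% of all genes) and 2 lower. The median log2 fold change was 0.44. ATG8, the ubiquitin-like protein attached to autophagosome membranes, averaged 13.6 CPM in Pcf11-13 and 4.71 CPM in wild type (log2 fold change 1.51, adjusted p = 2.11e-06). ATG14, a subunit of the autophagy-specific lipid kinase, averaged 9.24 CPM in Pcf11-13 and 3.75 CPM in wild type (log2 fold change 1.31, adjusted p = 9.51e-06). ATG10, the conjugating enzyme for Atg12, had 11.8, 14.1 and 12.1 CPM in Pcf11-13, against 3.28, 5.31 and 3.74 CPM in wild type (log2 fold change 1.61, SE 0.16, adjusted p = 2.92e-07). ATG1, the kinase that starts the process, rose less (0.70 on the log2 scale), and the lower members were ATG5 (-0.28) and ATG18 (-0.23). The list of vacuolar proteases and proton pump subunits had 7 higher (31.8%) and 9 lower (40.9%) of 22 tested, against 35.2% and 30.9% of all genes. It had 13 higher and 4 lower with library totals as the scale. The proteases PEP4 (0.66), PRB1 (0.50) and APE1 (0.66) rose, whereas the proton pump subunits VMA2 (-0.42), VMA13 (-0.39) and VMA6 (-0.31) fell.

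Proteasome genes rose by small amounts. Of 34 tested, 26 were higher (76.5%, against 35.2% of all genes) and 1 lower. The median log2 fold change was 0.19, and none reached 2-fold. RPN4, the transcription factor of the proteasome genes, had 121, 129 and 129 CPM in Pcf11-13, against 75.7, 72.9 and 71.3 CPM in wild type (log2 fold change 0.79, SE 0.052, adjusted p = 2.81e-09). The catalytic subunit genes PRE3 and PUP1 rose by log2 fold changes of 0.42 and 0.38, and the ring subunit gene PRE6 by 0.45. RPN10, a ubiquitin receptor, was the lower member (-0.52). Rpn4 binds the proteasome-associated control element, whose core GTGGCAA stood on either strand in the windows of 32 of the 34 genes (94.1%) and of 4.77% of all tested genes. Among genes that rose at least 2-fold, 4.81% held it. The promoters of 3 proteasome genes, those with the highest fold changes among members with the core between 250 and 51 bases before the start codon, are shown over that stretch with GTGGCAA or its reverse complement TTGCCAC in capitals.
PRE6 (chrXV:255087-255286, plus strand): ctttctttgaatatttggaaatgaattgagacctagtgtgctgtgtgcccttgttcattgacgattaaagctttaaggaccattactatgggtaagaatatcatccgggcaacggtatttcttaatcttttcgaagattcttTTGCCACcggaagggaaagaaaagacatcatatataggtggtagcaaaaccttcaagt
PRE3 (chrX:434913-435112, plus strand): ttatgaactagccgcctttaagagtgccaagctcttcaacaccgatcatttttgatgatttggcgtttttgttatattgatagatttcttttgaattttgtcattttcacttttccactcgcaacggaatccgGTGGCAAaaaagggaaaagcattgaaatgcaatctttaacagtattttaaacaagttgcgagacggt
PUP1 (chrXV:631802-632001, minus strand): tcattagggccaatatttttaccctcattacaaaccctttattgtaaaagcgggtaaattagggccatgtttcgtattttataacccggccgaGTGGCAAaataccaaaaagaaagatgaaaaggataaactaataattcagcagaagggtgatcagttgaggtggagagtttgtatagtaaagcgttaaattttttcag
The core begins 108, 117 and 157 bases before the start codons of PRE6, PRE3 and PUP1.

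Genes of glycolysis were mostly lower and genes of gluconeogenesis mostly higher, while the respiratory chain and pentose phosphate lists had members in both directions. The respiratory chain and ATP synthase had 10 higher (27.8%) and 11 lower (30.6%) of 36 tested. The pentose phosphate pathway had 4 higher (36.4%) and 5 lower (45.5%) of 11. Apart from the last, these shares were near the 35.2% higher and 30.9% lower of all genes. With library totals as the scale the counts of these lists became 16 higher and 2 lower, and 5 higher and 2 lower. Of 19 tested genes of glycolysis and fermentation, 13 were lower (68.4%, against 30.9% of all genes) and 3 higher (15.8%, against 35.2%). Their median log2 fold change was -0.32, and with library totals as the scale 11 were lower and 6 higher. ADH1, the main fermentative alcohol dehydrogenase, averaged 7230.2 ± 69.5 CPM in Pcf11-13 and 11245 ± 589 CPM in wild type (SD, n = 3 each, adjusted p = 9.43e-10). On the log2 scale, aldolase (FBA1) fell by 0.52 and enolase (ENO2) by 0.51. Pyruvate decarboxylase had members in both directions: on the log2 scale PDC1, the main form, fell by 0.47, while the minor forms PDC5 and PDC6 rose by 0.71 and 1.78. Of 18 tested genes of gluconeogenesis and the glyoxylate cycle, 13 were higher and 2 lower, with a median of 0.54. SIP4, an activator of gluconeogenic genes, had 21.7, 20.2 and 21.3 CPM in Pcf11-13, against 7.54, 9.47 and 7.47 CPM in wild type (log2 fold change 1.36, SE 0.11, adjusted p = 1.62e-08). ALD4, the mitochondrial aldehyde dehydrogenase, and PCK1, which catalyses the first committed step of gluconeogenesis, rose by log2 fold changes of 1.09 and 0.93, whereas FBP1, fructose-1,6-bisphosphatase, did not pass (0.24). Among 19 tested hexose transporters and their regulators, 12 were higher (63.2%) and 4 lower (21.1%), against 35.2% and 30.9% of all genes. HXT1 fell, HXT3 (-0.21) and HXT4 (-0.24) were slightly lower, and HXT5 (1.46), HXT7 (1.06), HXT10 (1.81) and HXT9 (1.12) rose. HXT10 was low, with means of 6.76 CPM in Pcf11-13 and 1.90 CPM in wild type, and HXT6 (-0.20) did not pass. With library totals as the scale 15 of the 19 were higher and 1 lower. The HXT3 difference was 0.01 with library totals as the scale and then did not pass.

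**Figure D3:**
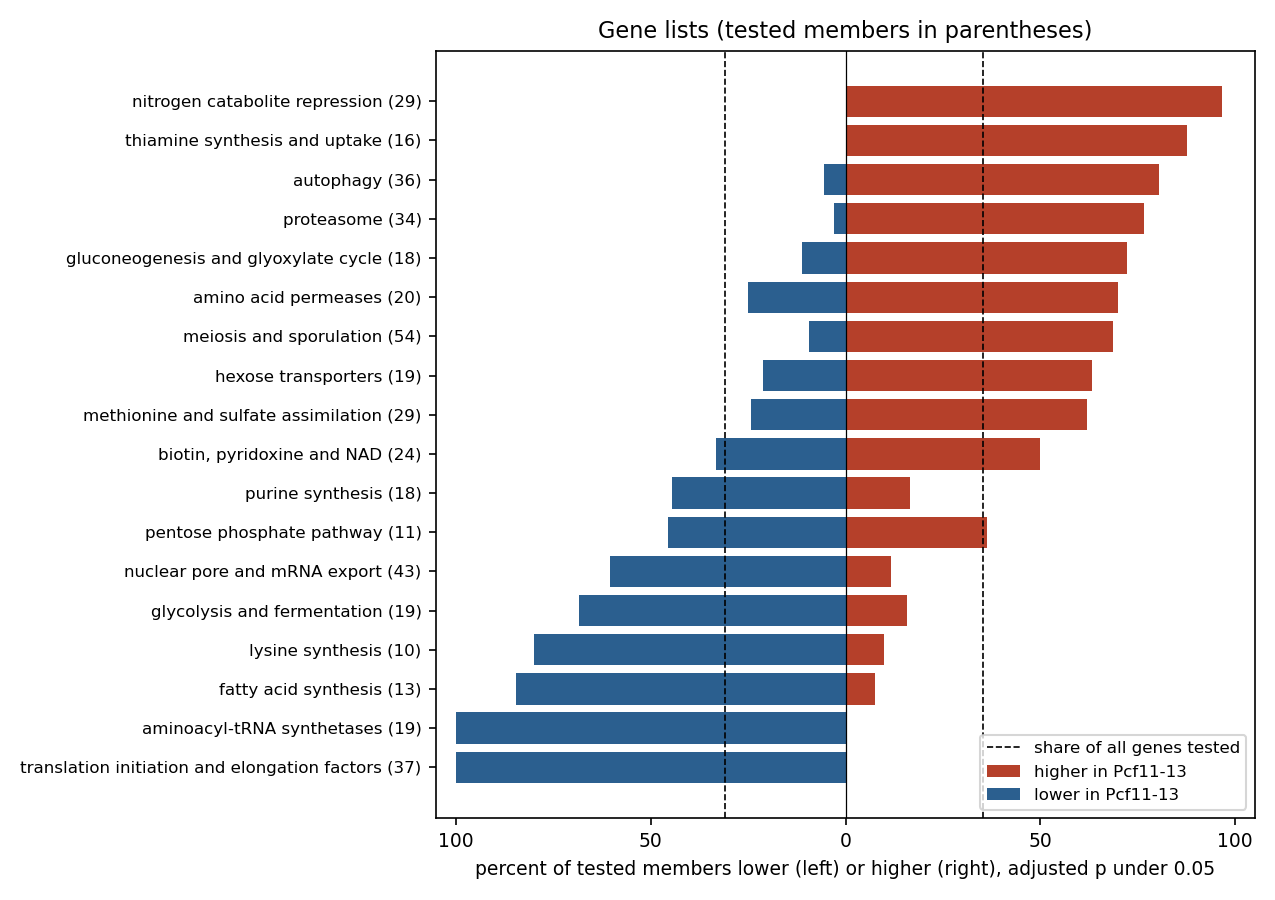
Percent of the tested members of 18 gene lists that were lower (blue, to the left) or higher (red, to the right) in Pcf11-13 at an adjusted p under 0.05. Dashed lines mark the shares over all genes tested, 30.9% lower and 35.2% higher.

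Sulfate assimilation and methionine synthesis had 18 of 29 tested members higher (62.1%) and 7 lower (24.1%), against 35.2% and 30.9% of all genes. The median log2 fold change was 0.37, and 22 were higher and 4 lower with library totals as the scale. MET3, ATP sulfurylase, had 110.4, 116 and 115 CPM in Pcf11-13, against 40.01, 46.0 and 44.04 CPM in wild type (log2 fold change 1.39, SE 0.064, adjusted p = 3.87e-11). The members with the largest falls were SAM2 (-0.66) and SAM1 (-0.36), the S-adenosylmethionine synthetases, and CYS4 (-0.46) and CYS3 (-0.33), which make cysteine. In the phospholipid list, members around INO1 moved the other way. The inositol transporter gene ITR1, the repressor gene OPI1 and the activator gene INO2 fell by 0.61, 0.68 and 0.59 on the log2 scale, and of 25 tested members 10 were higher (40%) and 9 lower (36%), near the 35.2% and 30.9% of all genes. With library totals as the scale 16 were higher and 4 lower.

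Several growth-related lists other than the ribosome fell together, each by less than 2-fold. Over all genes tested, 30.9% were lower and 35.2% higher. All 37 tested translation initiation and elongation factors were lower, with a median log2 fold change of -0.39 and values from -0.65 to -0.16, and 28 of them were lower with library totals as the scale. All 19 tested members of the aminoacyl-tRNA synthetase list, which holds the cofactor gene ARC1 as well, were lower, with a median of -0.47. Their largest fall was in DPS1, the aspartyl-tRNA synthetase, which averaged 463 ± 18.8 CPM in Pcf11-13 and 778 ± 38.9 CPM in wild type (SD, n = 3 each, adjusted p = 1.26e-09). Of 13 tested genes of fatty acid synthesis, 11 were lower and 1 higher. FAS1 and FAS2, the subunits of fatty acid synthase, fell by 0.63 and 0.47 on the log2 scale, and OLE1, the desaturase, by 0.78. Lysine synthesis had 8 of 10 tested members lower and 1 higher, with the lowest value in the homocitrate synthase gene LYS20 (-0.85), and 5 lower and 2 higher with library totals as the scale. Nuclear pore and mRNA export genes had 26 of 43 lower and 5 higher, with a median of -0.20, but 11 lower and 15 higher with library totals as the scale.

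In nucleotide synthesis several paralogs moved in opposite directions. ADE16 and ADE17 encode isozymes of the last steps of purine synthesis. ADE17 had 84.9, 84.5 and 82.5 CPM in Pcf11-13, against 25.0, 24.3 and 25.8 CPM in wild type (log2 fold change 1.75, SE 0.063, adjusted p = 2.60e-12). ADE16 had 147, 152 and 156 CPM in Pcf11-13, against 311, 319 and 311 CPM in wild type (log2 fold change -1.05, SE 0.047, adjusted p = 2.30e-11). ADE16 thus stayed the more abundant of the pair in Pcf11-13 by CPM, and the coding sequences are 1779 bases (ADE17) and 1776 bases (ADE16) long. URA10, the minor orotate phosphoribosyltransferase, had 21.9, 20.5 and 20.1 CPM in Pcf11-13, against 5.85, 4.16 and 5.31 CPM in wild type (log2 fold change 2.04, SE 0.13, adjusted p = 1.81e-09), and its major paralog URA5 was slightly lower (log2 fold change -0.18, adjusted p = 0.0035, but 0.03 with library totals as the scale). URA8, the minor CTP synthase, averaged 228 ± 2.51 CPM in Pcf11-13 and 103 ± 1.76 CPM in wild type, and URA7, the major one, averaged 471 ± 25.1 CPM in Pcf11-13 and 765 ± 63.3 CPM in wild type (SD, n = 3 each). Their adjusted p values were 6.69e-12 and 2.50e-08. APT1, adenine phosphoribosyltransferase, fell by 0.99 and its paralog APT2 rose by 0.68 on the log2 scale. PRS3, a subunit of the enzyme that makes the ribose donor of nucleotides, and AAH1, adenine deaminase, fell 2.01-fold and 2.04-fold (adjusted p = 8.65e-10 and 1.14e-09).

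The annotation names 489 pairs of whole-genome duplicates with both members tested. In 97 of these pairs one member was higher and the other lower, in 92 both were higher, in 96 both were lower, and in the other 204 at least 1 member did not pass. Calls in the same direction (188 pairs) thus outnumbered opposite calls. Over all genes tested, 35.2% were higher and 30.9% lower, and whether opposite calls exceeded what these shares give was not tested. With library totals as the scale, 52 pairs had opposite calls. ADE16 and ADE17 were the only pair in which both members changed at least 2-fold in opposite directions, and 4 pairs reached 1.5-fold on both sides. Other pairs with wide differences were COX5B, the hypoxic form of a cytochrome oxidase subunit (1.19), and COX5A, its aerobic form (-0.45), as log2 fold changes. GSP2, a minor Ran GTPase gene, rose 2.39-fold, and GSP1, the major one, fell 1.23-fold. These pairs were examined after the values were seen.

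**Figure D4:**
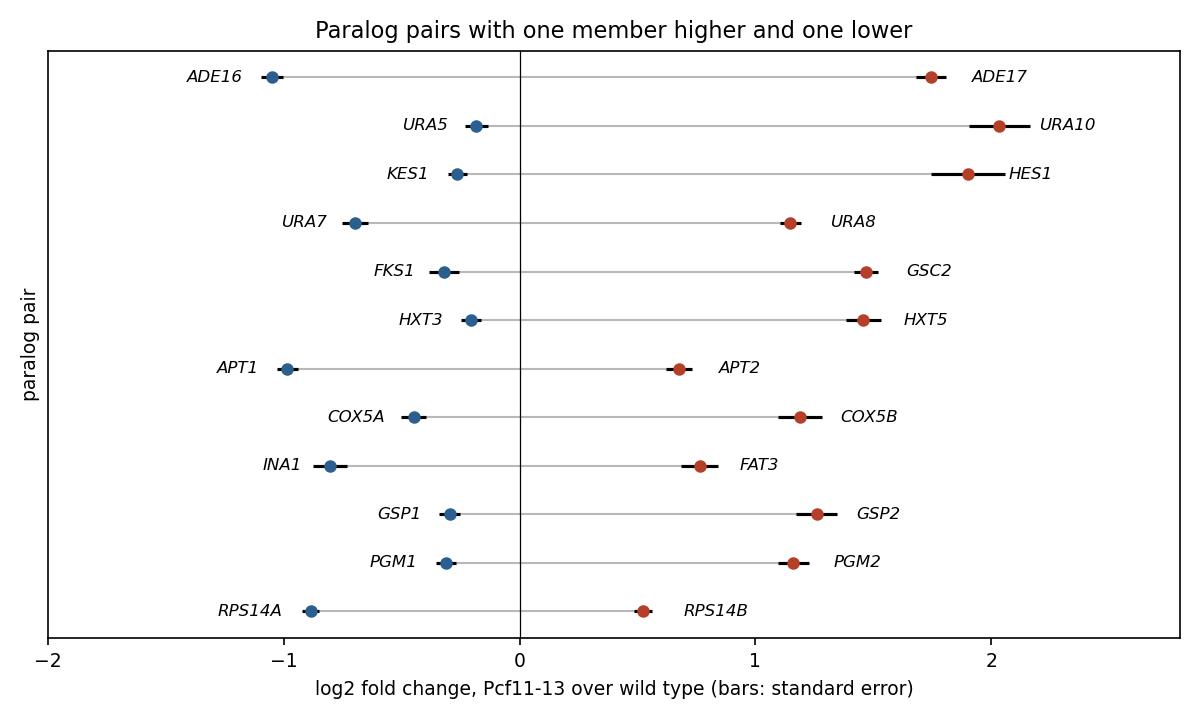
The 12 paralog pairs with opposite calls that differ most, among those with a mean of at least 5 CPM for both members, as log2 fold changes of Pcf11-13 over wild type with standard errors. The higher member of each pair is in red and the lower in blue, and ADE17 and ADE16 are farthest apart.

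Meiosis and sporulation genes, which vegetative cells keep low, had 37 of 54 tested members higher (68.5%) and 5 lower (9.26%), with a median log2 fold change of 0.58. Over all genes tested, 35.2% were higher and 30.9% lower. In this list 19 members rose at least 2-fold (35.2%), against 5.17% of all genes and 16.1% in the lowest of the 5 groups by level. The list was not matched to other genes by level. REC104, needed to start meiotic recombination, had 11.0, 11.11 and 9.59 CPM in Pcf11-13, against 3.46, 2.30 and 2.42 CPM in wild type (log2 fold change 1.98, SE 0.17, adjusted p = 6.81e-08). HOP1, a component of the meiotic chromosome axis, had 22.0, 21.6 and 20.5 CPM in Pcf11-13, against 8.07, 8.18 and 7.54 CPM in wild type (log2 fold change 1.43, SE 0.10, adjusted p = 3.32e-09). SGA1, the sporulation glucoamylase, had 30.3, 32.6 and 29.2 CPM in Pcf11-13, against 8.34, 10.3 and 10.7 CPM in wild type (log2 fold change 1.63, SE 0.11, adjusted p = 2.76e-09). AMA1, which activates the meiotic anaphase-promoting complex, had 9.01, 11.11 and 10.2 CPM in Pcf11-13, against 2.66, 1.36 and 2.88 CPM in wild type (log2 fold change 2.13, SE 0.21, adjusted p = 2.42e-07). In all 4 genes the lowest Pcf11-13 library was above the highest wild type library, and all 4 levels were low. IME1, the master inducer of meiosis, was lower (-0.68), as was UME6, its partner at early genes (-0.45), whereas the kinase gene IME2 (0.75) and the middle-phase activator gene NDT80 (0.34) were higher, as log2 fold changes.

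All 4 alpha-specific genes tested were lower, and the a-specific genes tested were higher at low levels. MF(ALPHA)2 had 104, 101 and 103 CPM in Pcf11-13, against 229, 204 and 201.5 CPM in wild type (log2 fold change -1.04, SE 0.050, adjusted p = 6.37e-11). STE3, the receptor for a-factor, averaged 242 ± 5.01 CPM in Pcf11-13 and 402 ± 20.9 CPM in wild type and SAG1, the alpha agglutinin, averaged 271 ± 9.98 CPM in Pcf11-13 and 473 ± 95.7 CPM in wild type (SD, n = 3 each). Their adjusted p values were 1.76e-09 and 2.30e-06. Of the a-specific genes that could be tested, STE6 (0.68), BAR1 (0.62) and STE2 (0.40) were higher on the log2 scale. ASG7, another a-specific gene, rose by 1.52. In the whole mating list 12 of 33 tested were higher and 12 lower, 36.4% each, near the 35.2% and 30.9% of all genes, and with library totals as the scale 17 were higher and 7 lower.

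Neighbouring genes were examined next, because Pcf11 acts at the ends of transcription units. The annotation gave 4991 adjacent pairs of tested coding genes on the nuclear chromosomes. In 36 pairs both genes changed at least 2-fold, 31 of them with both higher, 2 with both lower and 3 in opposite directions. The 2 pairs with both lower were BSC1 with PRM7, joined in w303, and AQY2 with YLL053C, joined in another strain background. The counts and shares here keep these pairs, as well as the higher pair NFT1 with YKR104W, joined in other strains. By orientation, 16 of 2382 tandem pairs, 9 of 1249 divergent pairs and 6 of 1360 convergent pairs had both genes higher. When the upstream gene of a tandem pair rose at least 2-fold, the downstream gene did so in 12.5% of 128 pairs, where 5.00% of all downstream genes did. For divergent pairs the same share was 18.0% of 50 pairs, against 4.24%, and for convergent pairs 8.70% of 69 pairs, against 4.19%. The log2 fold changes of neighbours were weakly correlated across pairs, with Pearson's r of 0.11 for tandem, 0.14 for divergent and 0.07 for convergent pairs. Pairs share genes and chromosomal regions and are not independent, and 12 of the 36 pairs lie within 30 kb of a chromosome end.

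Among tandem pairs with both genes at or above a mean of 5 CPM, CTO1 and POL4, 283 bp downstream, changed most. They rose 20.3-fold and 5.42-fold. NFT1, a putative multidrug transporter gene, and YKR104W, 99 bp downstream, rose 3.49-fold and 3.00-fold, and the annotation states that they are merged in other strains. The neighbours PHM7, a membrane protein gene, and ATG34, an autophagy receptor gene, rose 2.36-fold and 2.24-fold, and PRR2, a protein kinase gene, and GDH2 rose 2.22-fold and 2.30-fold. Divergent pairs that rose together were AQY3 and DAK2, LIN1 and REC104, SNO1 and SNZ1, and BIO4 and BIO3. In the convergent pair of YGR153W, of unknown function, and GTO1, a glutathione transferase gene, the genes rose 2.49-fold and 2.32-fold. The opposite pairs were MEP2, which rose, with AAH1, which lies 643 bp downstream on the same strand and fell, HXT5 with HXT1 2043 bp downstream, and the convergent pair of YHL012W (1.15) and PRS3 (-1.01). The longest run of neighbours that all rose at least 2-fold held 5 genes on the left arm of chromosome VI, between 17004 and 30540: AGP3, AQY3, DAK2, ZNF1 and YFL051C. Runs of 3 genes were found on chromosomes III, XI and XII. In the run on III, EMA35 and YCR099C overlap, and the run on XI holds NFT1 and YKR104W. The run on XII holds DPA10 and CDA2, at means of only 0.50 and 1.17 CPM.

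Coding genes that end opposite a snoRNA gene, so that both are transcribed toward each other, were mostly lower. This group was noticed after its values were seen, among the genes that fell most. Of 26 tested genes in this position, 21 were lower (80.8%, against 30.9% of all genes) and 3 higher, with a median log2 fold change of -0.45. PAM16 faces SNR37 across 317 bp, VMA9 faces SNR43 across 86 bp, EFM3 faces SNR3 across 57 bp, and ADE16 faces SNR30 across 150 bp, so 4 of the 35 genes that fell at least 2-fold were in this group. The 21 lower genes include these 4. Because the group was noticed among the genes that fell most, neither count is a test. BRE5, a cofactor of a ubiquitin protease (SNR49), and FAA4, a long-chain fatty acyl-CoA synthetase (SNR86), fell by 0.87 and 0.86 on the log2 scale, and SSO2, a membrane fusion protein (SNR83), fell by 0.71. Without the 4 ribosomal protein genes in the group, 17 of 22 were lower. With library totals as the scale, 17 of 26 were lower and 4 higher, with a median of -0.23, and the calls of GLO4 and CUE5 were lost when single libraries were left out. The exceptions were LIN1 (1.35), a component of the U5 splicing particle, POC4 (0.53), a proteasome assembly chaperone, and KTR2 (0.46), a mannosyltransferase, all as log2 fold changes, while POP6 and KSH1 did not pass.

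Genes in the other positions beside a snoRNA gene had these counts, and the differences between positions were not tested. Among all genes tested, 30.9% were lower, 35.2% higher and 5.17% higher by at least 2-fold. With the snoRNA gene upstream on the same strand, 14 of 33 genes were lower (42.4%) and 17 higher, 10 of them by at least 2-fold. With the snoRNA gene upstream on the other strand, 11 of 23 genes were lower (47.8%) and 7 higher. With it downstream on the same strand, 16 of 28 were lower (57.1%) and 6 higher, and without ribosomal protein genes 8 of 20 were lower (40%) and 6 higher. Library totals gave, in the same order, 10 lower and 18 higher, 5 and 13, 13 and 11, and 6 and 11. Whether the counting used strand is not given in the sources used here, so reads from the opposite strand in these regions cannot be told apart from those of the gene. The part of antisense transcription in these falls was not tested.

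**Figure D5:**
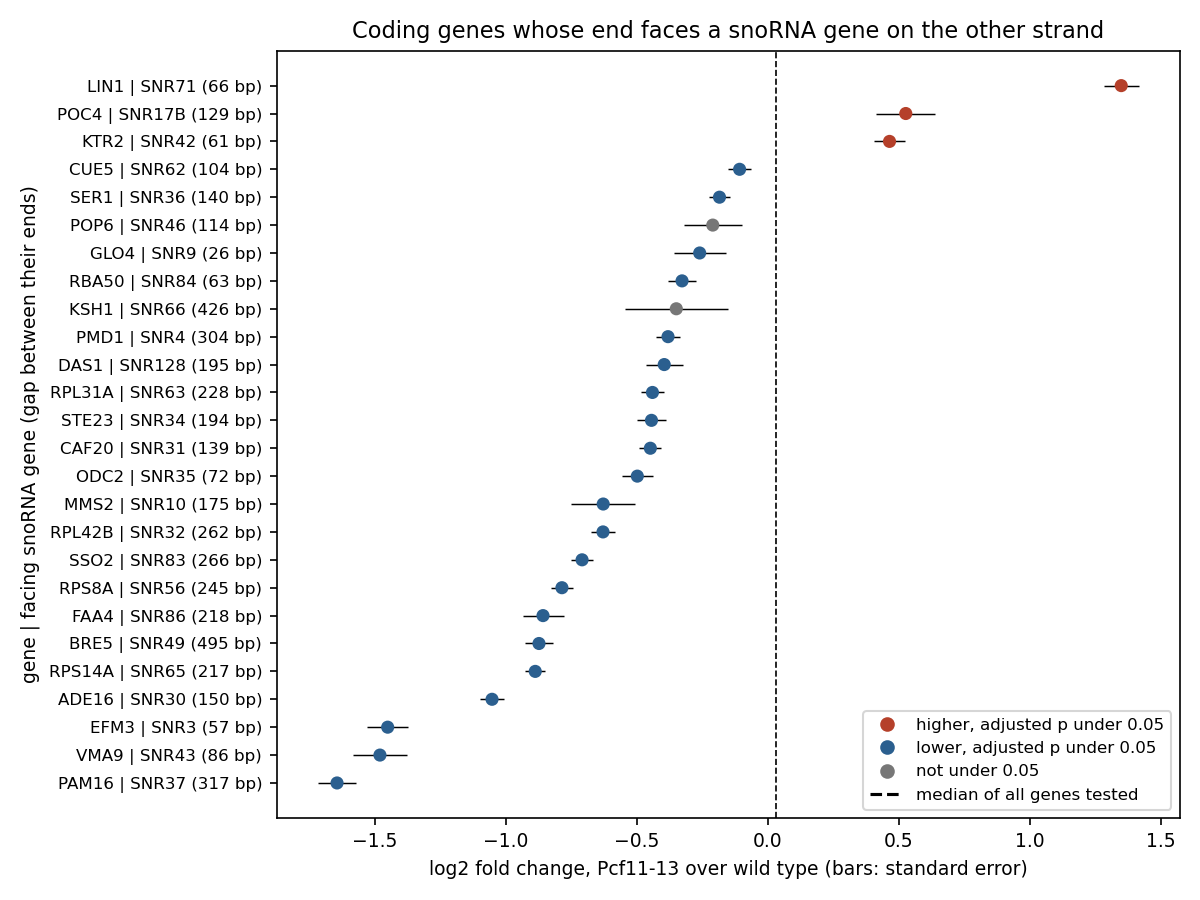
Log2 fold change with standard error of the 26 coding genes whose end faces a snoRNA gene on the opposite strand, with the name of the snoRNA gene and the gap between the annotated ends. Most points lie left of the median of all genes tested (dashed line), and LIN1, POC4 and KTR2 lie to the right.

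Position and gene structure gave further descriptions. Of 320 tested genes within 30 kb of a chromosome end, 158 were higher (49.4%, against 35.2% of all genes) and 45 lower (14.1%, against 30.9%). In this group 49 rose at least 2-fold (15.3%), against 5.17% of all genes and 16.1% in the lowest of the 5 groups by level. The median log2 fold change was 0.22, and the part of expression level in these shares was not tested. Library totals gave 223 higher and 27 lower. Of 144 tested genes directly downstream of a transfer RNA gene on the same strand, 62 were higher (43.1%, against 35.2% of all genes). In this class 45 were lower and 10 were higher by at least 2-fold. These shares, 31.3% lower and 6.94% higher by at least 2-fold, were near the 30.9% and 5.17% of all genes. Library totals gave 86 higher and 23 lower. Of 171 intron-containing genes outside the ribosomal proteins, 58 were higher (33.9%, near the 35.2% of all genes) and 34 lower (19.9%, against 30.9%). Under library totals 108 were higher and 17 lower. Ty retrotransposon genes, which share reads among near-identical copies, had 44 of 73 higher (60.3%) and 9 lower (12.3%), and 49 and 5 with library totals. Their summed level was 24716 to 26297 CPM in the Pcf11-13 libraries, against 19275 to 21652 CPM in the wild type libraries. Their log2 fold changes ran from -11.46 to 7.69. The lowest was YGR027W-A, which YGR027W-B overlaps over its whole length. It had 0 CPM in all 3 Pcf11-13 libraries, against 24.3 to 27.1 CPM in wild type. This gene is among the 35 that fell at least 2-fold, and the part of read assignment was not tested.

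Pcf11-DNL, the other allele of the series, was tested directly against Pcf11-13, and for 4 of the genes named above its levels were nearer to wild type. The 4 are examples, with no count over the genes named. HSP30, for one, averaged 168 CPM in Pcf11-DNL, above its 96.1 CPM in wild type and 42.7 CPM in Pcf11-13. ATG45 averaged 7.01 ± 0.481 CPM in Pcf11-DNL (SD, n = 3), with a log2 fold change of 2.55 for Pcf11-13 over Pcf11-DNL (adjusted p = 5.12e-12). DAL80 averaged 6.91 ± 0.532 CPM and gave 1.74 (adjusted p = 1.74e-09). ADE17 averaged 27.2 ± 2.42 CPM and gave 1.63 (adjusted p = 6.11e-12), and PAM16 averaged 35.4 ± 2.56 CPM and gave -1.17 (adjusted p = 3.43e-09). PAM16 was itself lower in Pcf11-DNL than in wild type (log2 fold change -0.47, adjusted p = 1.58e-04). The contrasts of Pcf11-13 with the other groups use the same Pcf11-13 libraries, and all contrasts here share libraries, so they are not independent.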

How the data were processed

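For 9 libraries, the authors deposited expected counts, RSEM's estimates, in 1 table by gene and without scaling; 10.8% of values were not whole. Per the submitters' processing notes, the build was sacCer3 and the tools were RSEM 1.3, STAR 2.6.1b, Trimmomatic 0.38, DESeq2 1.26.0 and FastQC; how strand was treated in counting is not given in the sources used here. Gene names and positions were matched by systematic name to RefSeq R64, whose annotation held 5919 of the 5928 genes; 5 of the 9 others were tested.

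After rounding, edgeR 4.0.16 (R 4.3.3) was run with filterByExpr (minimum count 10), TMM scaling and 1 quasi-likelihood fit by group to all 9 libraries, tested two-sided for Pcf11-13 minus wild type. The threshold was an adjusted p of 0.05 (Benjamini-Hochberg over 5646 genes). The biological coefficient of variation was 4.59%. The pipeline was tested on simulated data. The depth of the libraries, given in the report, limits precision for genes of a few CPM. P-values measure the spread between 3 samples a group.

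The genes named are PCF11, then, among genes past the threshold with a fold of 2 or more, a mean of at least 5 CPM, no overlap between the groups and not in an earlier account of the series, the 20 highest and 15 lowest log2 fold changes. Up to 4 members of each list follow, ranked by adjusted p among those moving in the list's main direction, then adjacent pairs with both genes changed at least 2-fold. Members of these lists named beyond the 4, and the genes of the paralog and snoRNA groups, were chosen after their values were seen. The members and the 48 lists were chosen with earlier results of these data known, so lists are described by counts and medians and carry no test. Genes are adjacent when no other annotated gene lies between them. Motifs were searched on both strands with Python 3.11.15 and Biopython 1.88. Alternatives were DESeq2 1.42.0 (size factors, Wald test), limma-voom (limma 3.58.1), library totals, no filter, a mean of 5 CPM, a minimum fold of 1.5, the 6 libraries alone, replicate number as a block, and leaving out each library.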

Additional observations from a re-analysis of the deposited data

How the results depend on the processing

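The counts of genes called depended most on the scaling. With library totals in place of TMM, 3372 genes were higher and 861 lower, 455 were higher and 23 lower by at least 2-fold, and 68 adjacent pairs had both genes changed at least 2-fold. A filter at a mean of 5 CPM left 20 such pairs. The other alternatives kept these 5 counts over all genes and pairs within 1.5 times. The counts of list members moved more: of 1512 list counts recomputed, 118 differed by over 1.5 times, 71 of them under library totals, 6 under the DESeq2 Wald test, 6 under DESeq2 size factors, 6 without wild type replicate 1 and 1 under limma-voom. Leaving out 1 library at a time gave 1814 to 1935 genes higher, 1605 to 1709 lower, 281 to 298 higher and 31 to 39 lower by at least 2-fold, and 31 to 35 pairs. Among the followed genes called in the main comparison, 7 that were lower turned positive with library totals: HXT3 (0.0091), TRP2 (0.0496), TRP5 (0.0215), ZRT3 (0.0329), URA5 (0.0300), CUE5 (0.1057) and SER1 (0.0289). HXT6 and POP6, which had not passed, turned positive too. Over 349 genes followed under up to 14 alternatives, 4810 of 4863 values kept their direction and side of the threshold, 42 lost the call and 4 gained it. MPH2, a maltose permease gene at 0, 1.72 and 0 CPM in wild type, lost its call in 6 alternatives, and GLO4, CUE5 and HSP32 lost theirs without single libraries. The cause of these changes was not tested. Genes of a few CPM are limited by depth.

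Samples were not treated as paired by replicate number in the main fit. The correlations of deviations for the same number were 0.32, 0.21 and 0.08. Each library correlated best with its own number, a hint from the data and not the design. With the replicate block, 1996 genes were higher and 1851 lower, 293 and 37 by at least 2-fold.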
